A study of Homo sapiens with 2 samples.

Results

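Some alternative splicing events of the 2 libraries carry no Ensembl gene identifier but a number for the locus where the isoforms map, and most of these loci were pseudogenes. A row was counted here when its gene column did not hold ENSG followed by digits only. There were 607 such events among 78090: 348 of 42783 for DCRT-KO and 259 of 35307 for WT. They lay at 98 loci in DCRT-KO and 90 loci in WT. Both samples were AC16, a human line that the labels describe as cardiomyocytes of the heart. One was wild type (WT), and the other lacked the long non-coding RNA DCRT after CRISPR-Cas9 editing (DCRT-KO). The labels give no other treatment, time or dose. There was 1 library of each genotype, and whether the knockout line is a clone is not stated. For each event, the lists give the isoforms that carry either of 2 alternative forms and the splice positions on hg38. They hold no read count or inclusion level. No difference below has a replicate check, no test of the genotypes is possible, and every interval is an exact (Clopper-Pearson) 95% interval that covers counting error only.

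Depth is unknown. Over all events, the ratio of DCRT-KO to WT was 1.21. Of the marker genes of the labelled cell type, 2 of 14 cardiomyocyte markers had a listed event, MYL3 and NPPB, with 3 events in WT and 0 in DCRT-KO. For comparison, 8 of 10 fibroblast markers had an event in at least 1 list. In DCRT-KO 4 of them had 22 events, and in WT 7 had 574. The same 3 of 6 epithelial markers had events in both lists, 79 in DCRT-KO and 22 in WT. Of 4 smooth muscle markers, 2 had events, 0 in DCRT-KO and 34 in WT. None of 4 endothelial markers had an event in either list. The part of these differences in the results below was not tested.

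A pseudogene is a copy or a relic of a gene that has lost the ability to make the original protein. Unprocessed pseudogenes arise by duplication of genomic DNA and keep the introns of the parent, so their RNA can be spliced like that of the parent. Processed pseudogenes are copied back from RNA and start without introns. Unitary pseudogenes are former genes with no working copy left in the genome. Many unprocessed pseudogenes sit in segmental duplications, where several near-identical copies lie close together or at chromosome ends. A read from such a copy can match several places almost equally well. The event types are exon skipping (ES, an internal exon left out), intron retention (IR), alternative acceptor (AA, a different start of an exon), alternative donor (AD, a different end of an exon) and mutually exclusive exons (MEE, either of a pair of exons kept).

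The sequences of the WASH, STAG3L and DUXAP loci are shown because the same or nearly the same letters stand at several places of the genome, and those of AC006001.3, AFG3L1P and SVIL-AS1 because the event was identical in both lists. All were read from the GENCODE v29 transcripts (hg38), 5′ to 3′ on the transcribed strand. WASH7P, WASH8P and WASH3P are copies of WASHC1, a subunit of the WASH complex that drives actin branching on endosomes. Their skipped exon of 136 bases lies at chr1:17233-17368 (minus strand) in WASH7P, at chr12:17348-17483 (minus) in WASH8P and at chr15:101973592-101973727 (plus) in WASH3P. It was skipped in DCRT-KO at WASH7P and in WT at WASH8P and WASH3P, and 0 of its 136 positions differ between the copies.
WASH exon of 136 bases: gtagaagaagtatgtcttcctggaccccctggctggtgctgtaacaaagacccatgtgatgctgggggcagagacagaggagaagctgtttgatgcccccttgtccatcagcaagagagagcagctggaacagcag
A second skipped WASH exon of 154 bases lies at chr1:24738-24891, chr12:26801-26954 and chr15:101966070-101966223 on the same strands. It differs at 1 position, in capitals, at which WASH8P and WASH3P have the same letter.
WASH7P exon of 154 bases: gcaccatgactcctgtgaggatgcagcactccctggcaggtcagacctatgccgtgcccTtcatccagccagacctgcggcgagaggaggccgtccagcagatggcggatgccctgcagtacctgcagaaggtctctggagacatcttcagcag
WASH8P and WASH3P exon of 154 bases: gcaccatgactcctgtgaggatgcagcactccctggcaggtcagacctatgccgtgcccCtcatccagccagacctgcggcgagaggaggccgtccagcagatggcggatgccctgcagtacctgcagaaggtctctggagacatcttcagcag

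The STAG3L loci are partial copies of STAG3, a cohesin subunit of meiotic cells. Their skipped exon of 124 bases lies at chr7:75364633-75364756 (plus) in STAG3L1, chr7:74885023-74885146 (minus) in STAG3L2 and chr7:73000358-73000481 (minus) in STAG3L3, with 0 differing positions and so no capitals. It was skipped in both libraries at STAG3L2 and STAG3L3. At STAG3L1 it was skipped in WT, and in DCRT-KO under the identifier of TRIM73.
STAG3L exon of 124 bases: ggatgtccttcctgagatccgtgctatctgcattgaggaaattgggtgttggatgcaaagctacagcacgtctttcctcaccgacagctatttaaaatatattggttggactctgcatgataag
DUXAP9 and DUXAP10 are copies related to the double homeobox gene DUXA. v29 lists both loci as transcribed processed pseudogenes. Between a pair of alternative acceptors they share a stretch of 24 bases, chr14:19068077-19068100 (plus) and chr14:19331949-19331972 (minus), whose final AG (capitals) precedes the second acceptor.
DUXAP9 and DUXAP10 acceptor stretch of 24 bases: gtcatttaccatgctgtcctccAG

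At AC006001.3 lay the shared event that stood in the most rows of the lists. RefSeq names this locus RABGEF1P1, and RABGEF1 is an exchange factor for Rab5, a small GTPase of early endosomes. Its skipped exon of 178 bases lies at chr7:66576755-66576932 on the minus strand, and no part of it is in capitals.
AC006001.3 exon of 178 bases: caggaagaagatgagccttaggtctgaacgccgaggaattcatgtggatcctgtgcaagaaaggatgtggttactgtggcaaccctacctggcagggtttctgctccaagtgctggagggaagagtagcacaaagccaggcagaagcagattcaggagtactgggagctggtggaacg
At AFG3L1P, a unitary pseudogene of a mitochondrial protease of the AAA family, 3 acceptors follow each other on the plus strand and all 3 pairs of them were listed in both libraries. The stretch shown is chr16:89977639-89977734, and capitals mark the first exon base after each acceptor, at 0, 39 and 76 bases. The second and the third acceptor follow the letters ag.
AFG3L1P acceptors: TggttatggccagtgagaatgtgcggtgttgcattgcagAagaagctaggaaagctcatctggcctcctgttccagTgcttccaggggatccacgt
At SVIL-AS1 the same pair of donors was listed in both libraries, in 1 row in DCRT-KO and 2 rows in WT. The stretch between them, chr10:29409659-29409683 on the plus strand, begins with the GT (capitals) that follows the first donor.
SVIL-AS1 donor stretch of 25 bases: GTgagagtggggtgggcaagtccag

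Loci without an identifier made up 0.813% of the DCRT-KO list (interval 0.730 to 0.903) and 0.734% of the WT list (0.647 to 0.828), and these intervals overlap. The number of events was 1.34 times as high in DCRT-KO and the number of loci 1.09 times as high. A total of 452 isoforms in DCRT-KO and 403 in WT carried the events. The events were concentrated: the 10 loci with most events held 42.0% of the events in DCRT-KO and 39.4% in WT, while 42 of 98 and 46 of 90 loci had a single event. The median was 2 events per locus in DCRT-KO and 1 in WT, against 4 and 3 for genes with an identifier. In no event without an identifier was either form carried by an annotated Ensembl transcript, whereas 59.3% of DCRT-KO and 59.7% of WT events with an identifier named at least 1. An annotated transcript belongs to an identified gene, so this contrast may follow from how the events were chosen.

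Pseudogenes dominated these loci in both libraries. Each locus was compared with GENCODE v29 on the strand read from the order of its splice positions. A v29 pseudogene lay at 67 of the 98 DCRT-KO loci (68.4%, interval 58.2 to 77.4) and at 65 of the 90 WT loci (72.2%, 61.8 to 81.1). Of the 348 DCRT-KO events 277 lay there (79.6%, 75.0 to 83.7), as did 201 of the 259 WT events (77.6%, 72.0 to 82.5). Among events with an identifier known to v29, 6 of 42392 in DCRT-KO and 6 of 35022 in WT named a pseudogene, and 98.6% and 98.9% named a protein-coding gene. Transcribed unprocessed pseudogenes were the most frequent kind, with 47 loci and 180 events in DCRT-KO and 46 loci and 118 events in WT. Transcribed unitary pseudogenes had 7 and 6 loci, and transcribed processed pseudogenes had 5 and 4.

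The remaining loci were a minority in both libraries. The same-strand v29 gene assigned to the locus was protein coding at 5 DCRT-KO and 7 WT loci. It was a long non-coding RNA at none, but only the best matching gene was assigned. A v29 gene lay on the opposite strand only at 9 and 8 loci. RefSeq, without regard to strand, places a long non-coding RNA at 16 DCRT-KO and 8 WT loci of the pseudogene class. It does so at 6 and 3 opposite-strand loci and at 10 and 4 loci with no v29 gene. No v29 gene overlapped 17 loci with 50 events in DCRT-KO and 9 loci with 15 events in WT. With either strand counted, 82.7% of DCRT-KO loci and 90.0% of WT loci overlapped a v29 gene by at least 1 base, and 69.4% and 72.2% a v29 pseudogene. Annotation differed between sources: the v29 coding genes C19orf48, FAM86C1, TRIM16L and ATP6AP1L are transcribed pseudogenes in RefSeq, while NBPF8, an unprocessed pseudogene in v29, is protein coding there. With RefSeq pseudogenes added, 285 of 348 DCRT-KO events (81.9%) and 229 of 259 WT events (88.4%) belonged to a locus at a pseudogene.

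**Figure D1:**
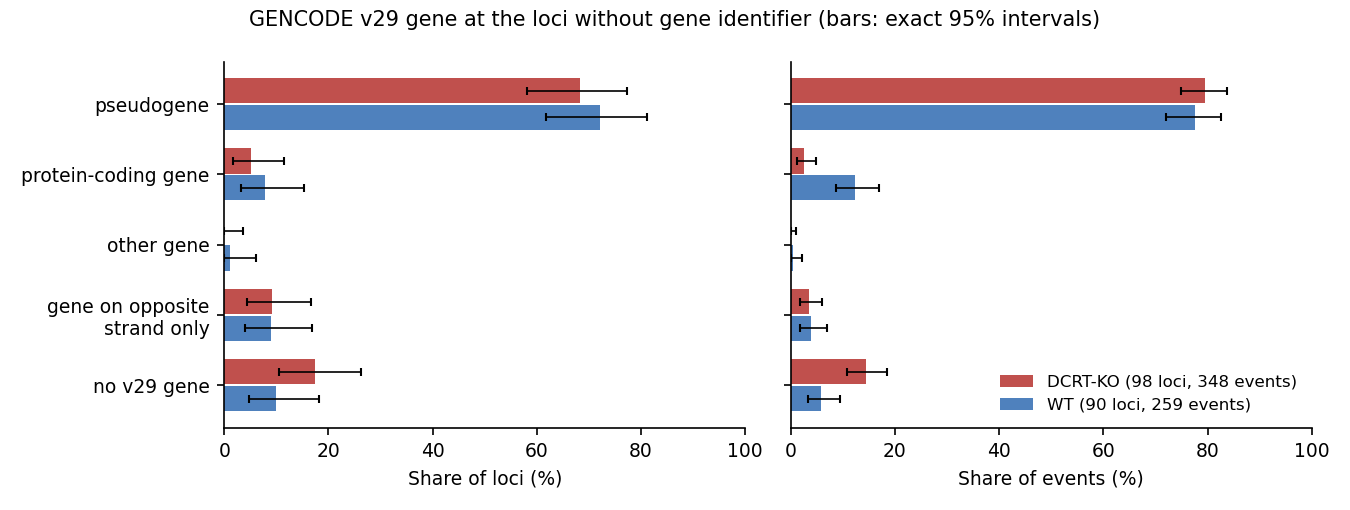
Share of the loci (left, %) and of the events (right, %) without a gene identifier by the GENCODE v29 gene at the locus, for DCRT-KO (red) and WT (blue), with exact 95% intervals. Pseudogenes hold 68.4% of the loci in DCRT-KO and 72.2% in WT.

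Chromosome 7, rich in segmental duplications, held 75 of the DCRT-KO events (21.6%) and 58 of the WT events (22.4%), against 4.59% and 5.12% of the whole lists. These 133 events include copies of NSUN5, STAG3, RABGEF1 and DPY19L2. Chromosome 1 had 59 DCRT-KO and 19 WT events, and chromosome 12 had 18 and 40. Of these, NBPF8 and WASH7P held 27 and 19 of the DCRT-KO events on chromosome 1, and WASH8P held 24 of the WT events on chromosome 12.

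Exon skipping was the most frequent type and was more frequent than among events with an identifier. For DCRT-KO it accounted for 190 of 348 events (54.6%, interval 49.2 to 59.9), and for WT it accounted for 126 of 259 (48.6%, 42.4 to 54.9). Among events with an identifier the shares were 39.6% and 34.4%, and among those whose forms were carried by library isoforms alone, as all events without an identifier were, they were 28.7% and 22.7%. Intron retention was less frequent than in either of these sets, with 59 DCRT-KO events (17.0%, 13.2 to 21.3) and 64 WT events (24.7%, 19.6 to 30.4), against 28.7% and 35.2% of events with an identifier.

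**Figure D2:**
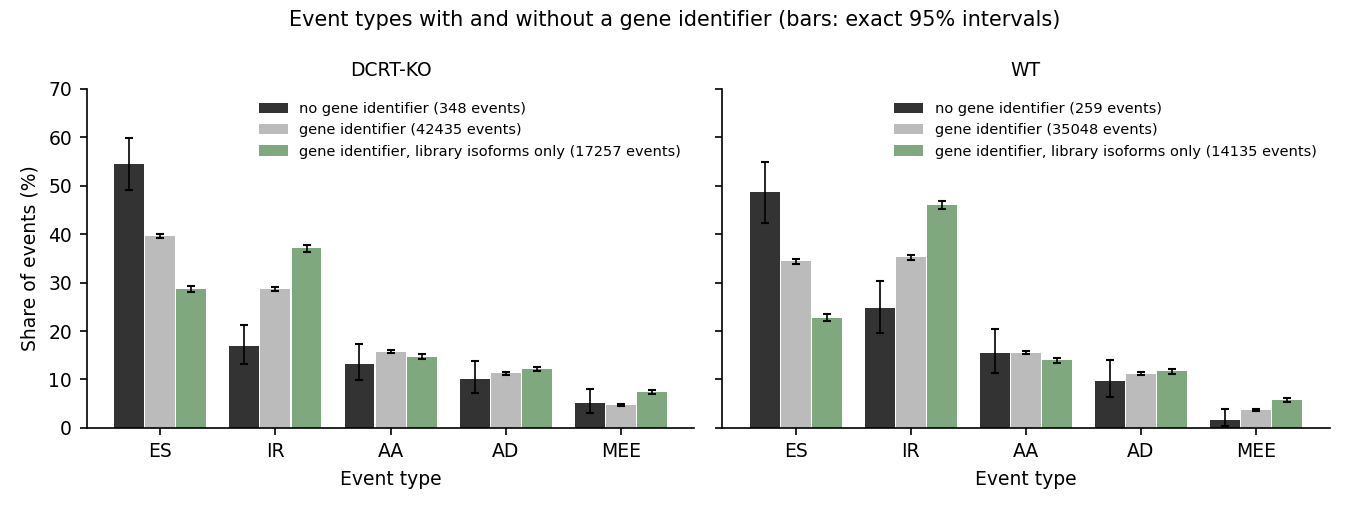
Share of events (%) by type in DCRT-KO (left) and WT (right) for events without an identifier (black), events with an identifier (grey) and the latter with both forms carried by library isoforms alone (green), with exact 95% intervals. Exon skipping reaches 54.6% and 48.6% among events without an identifier.

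Mutually exclusive exons numbered 18 in DCRT-KO and 4 in WT, a ratio of 4.5, against 1.52 among events with an identifier. As a share of the members they were 5.17% (3.09 to 8.05) and 1.54% (0.422 to 3.91), and these intervals overlap. In none of the 22 events did both forms have at least 2 library isoforms. Of the types with more events, AA had 46 and 40 events and AD had 35 and 25. The AA shares were 13.2% and 15.4%, against 15.8% and 15.5% among events with an identifier.

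Support was thin in both groups of events. In DCRT-KO 45 of 348 events (12.9%) and in WT 32 of 259 events (12.4%) had at least 2 library isoforms on each form, against 13.0% and 11.3% of the whole lists. Among events with an identifier and library isoforms on both forms, as all members had, the shares were 15.3% and 13.4%. A single isoform on each form carried 172 events in DCRT-KO (49.4%) and 113 in WT (43.6%), against 31.7% and 32.2% of all events with an identifier. Among events with an identifier whose forms rest on library isoforms alone, as those of the members do, the shares were 46.4% and 46.9%. The members thus lay near the whole lists on the first measure and above all events with an identifier on the second, where they lay near the library-isoform subset.

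Skipped segments were of the length of ordinary exons but matched annotated exons less often. Their median was 120 bases in DCRT-KO and 124 in WT, against 115 and 113 among events with an identifier. Among DCRT-KO segments 88 of 190 (46.3%, 39.1 to 53.7) were v29 exons, and among WT segments 71 of 126 (56.3%, 47.2 to 65.2), against 75.9% and 75.0% of the whole lists. Restricted to events with an identifier and library isoforms alone, 67.2% and 66.6% were v29 exons. At pseudogene loci 84 of 148 skipped segments in DCRT-KO and 63 of 99 in WT were v29 exons. The retained segment was a v29 intron in 23 of the 59 IR events of DCRT-KO (39.0%, 26.5 to 52.6) and in 31 of the 64 of WT (48.4%, 35.8 to 61.3), near the 48.2% and 46.9% of the whole lists.

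Closely spaced acceptors were less frequent than among events with an identifier. Acceptors 3 bases apart, the tandem acceptor pattern that adds or removes a codon in coding genes, were absent from all 86 AA events without an identifier, a count that allows a share of up to 3.49% (3 counts of 86). Among AA events with an identifier, 993 of 12130 (8.19%) had this spacing, and in those with library isoforms alone it was 6.21% in DCRT-KO and 6.76% in WT. Acceptors up to 12 bases apart were 5 of 86 (5.81%, 1.91 to 13.0), against 18.2% of the 12130. In those with library isoforms alone the share was 13.9% in DCRT-KO and 15.3% in WT, close to the upper end of that interval. The shared acceptors of DUXAP10 and AFG3L1P, printed above, are 24, 37, 39 and 76 bases apart.

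The DCRT-KO loci with most events were NBPF8, WASH7P, AC006001.3, AC141586.1 and DPY19L2P1. NBPF8 belongs to the neuroblastoma breakpoint family, a group of recently duplicated genes with many near-identical copies on chromosome 1. Its locus 1.3747, chr1:120415194-120461346 on the plus strand, had 27 events and 28 isoforms: 16 ES, 5 IR, 4 AA, 1 AD and 1 MEE. These were the most ES events of any locus in either list, with repeated rows included. With repeated rows counted once, NBPF8 and DPY19L2P1 had 11 ES events each. Of the 16 ES events, 4 had a segment that is a v29 exon. The best supported was the skipping of an exon of 99 bases, chr1:120425747-120425845, with 7 isoforms on the rarer form and 10 on the other. The v29 body of NBPF8 spans chr1:120436353-120467739, so the locus begins before it. This exon and other skipped segments of the locus lie outside that body.

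NBPF8 also shows how an identifier can be given in one list and not in the other. In WT, 8 events lay in the same place under the identifier of NBPF26, a coding member of the family whose v29 body is elsewhere on the chromosome, and 3 of the 27 DCRT-KO events were identical to WT events. So the locus counted 27 events in DCRT-KO and 8 in WT by position, and 27 and 0 by identifier.

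DPY19L2P1 is a copy of DPY19L2, a gene needed for the head of the sperm cell. Its locus 7.280, chr7:35090320-35183525 on the minus strand, had 16 events, 14 ES and 2 AD, and 16 isoforms in DCRT-KO and no event in WT. Of its 14 ES events, 8 skipped a v29 exon. The coding DPY19L2 had 0 events in DCRT-KO and 7 in WT.

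AC141586.1, a transcribed unprocessed pseudogene that RefSeq names LOC652276, had 16 events in DCRT-KO at chr16:2610462-2625610 (plus) and 2 in WT. It had the most AD events of any locus, 6, which pair 4 donors of a single exon. None of these 6 donor pairs is in v29. Of its 16 events, 10 had 1 isoform on each form. The single event found in both lists was a retained v29 intron of 2907 bases.

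In WT the loci with most events were WASH8P, C19orf48, DUXAP9, AC006001.3 and SVIL-AS1, which ties with STAG3L3. C19orf48 hosts small nucleolar RNAs in its introns. Its locus 19.605, chr19:50797796-50803874 on the minus strand, had 24 events and 28 isoforms in WT: 13 IR, 6 ES, 4 AA and 1 AD. In DCRT-KO, 59 events lay at the same place under the identifier of SMIM47, whose v29 gene ends at 50793142 and does not reach these events, and 9 of the WT events were identical to DCRT-KO events. It thus had 24 events without an identifier in WT and 0 in DCRT-KO, but 24 and 59 by position.

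The IR events of C19orf48 were of 2 kinds. Of the 13, 4 retained a v29 intron of the gene, between chr19:50798924 and 50799294. The other 9 lay within chr19:50797796-50798827 and none is a v29 intron. They span 72 to 908 bases, and a pair of them, each of 335 bases, is shifted by 4 bases. In each of these 9 events the rarer form had 1 isoform.

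At 9 loci events had no identifier in one library and carried one in the other. These are NBPF8, PI4KAP2 and AC244154.1 in DCRT-KO and C19orf48, CRYBB2P1, GTF2H2B, STAG3L4, STAG3L1 and a locus without a v29 gene in WT. PI4KAP2 had 3 events without an identifier in DCRT-KO and 4 in WT under PI4KA, a lipid kinase. STAG3L1 had 5 in WT and 7 in DCRT-KO under TRIM73, which lies downstream, and each of the 5 WT events had an identical DCRT-KO event. Adding the events under an identifier at these places gave 425 events in DCRT-KO and 272 in WT, a ratio of 1.56 in place of 1.34. Of the 77 events added in DCRT-KO, 59 lay at the C19orf48 locus.

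Most events of the WASH copies lay on chromosome 1 in DCRT-KO and on chromosome 12 in WT. WASH7P, at the start of chromosome 1, had 19 events in DCRT-KO, at chr1:14829-24891, and 1 in WT. WASH8P, at the start of chromosome 12, had 0 events in DCRT-KO and 24 in WT, at chr12:15153-26954. No DCRT-KO event of any kind, with or without an identifier, lay in WASH8P. WASH3P on chromosome 15 had 0 and 4 events, and FO538757.1 on chromosome 1 had 2 and 2. Over the 4 copies the count was 21 in DCRT-KO and 31 in WT, and the parent WASHC1 had 0 events in both lists.

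The WASH7P and WASH8P transcripts are 98.7% identical over 1311 aligned bases. Among 15 distinct type-and-length segments of WASH7P in DCRT-KO and 23 of WASH8P in WT, 4 were the same: the exons of 136 and 154 bases, an acceptor shift of 13 bases and a retained segment of 296 bases. WASH7P also had an IR event of 659 bases in both lists, and FO538757.1 had one of the same length in both. Reads of such copies can be placed at either by the aligner, so the number of events of a single copy is uncertain, and the part of read placement in these counts was not tested.

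**Figure D3:**
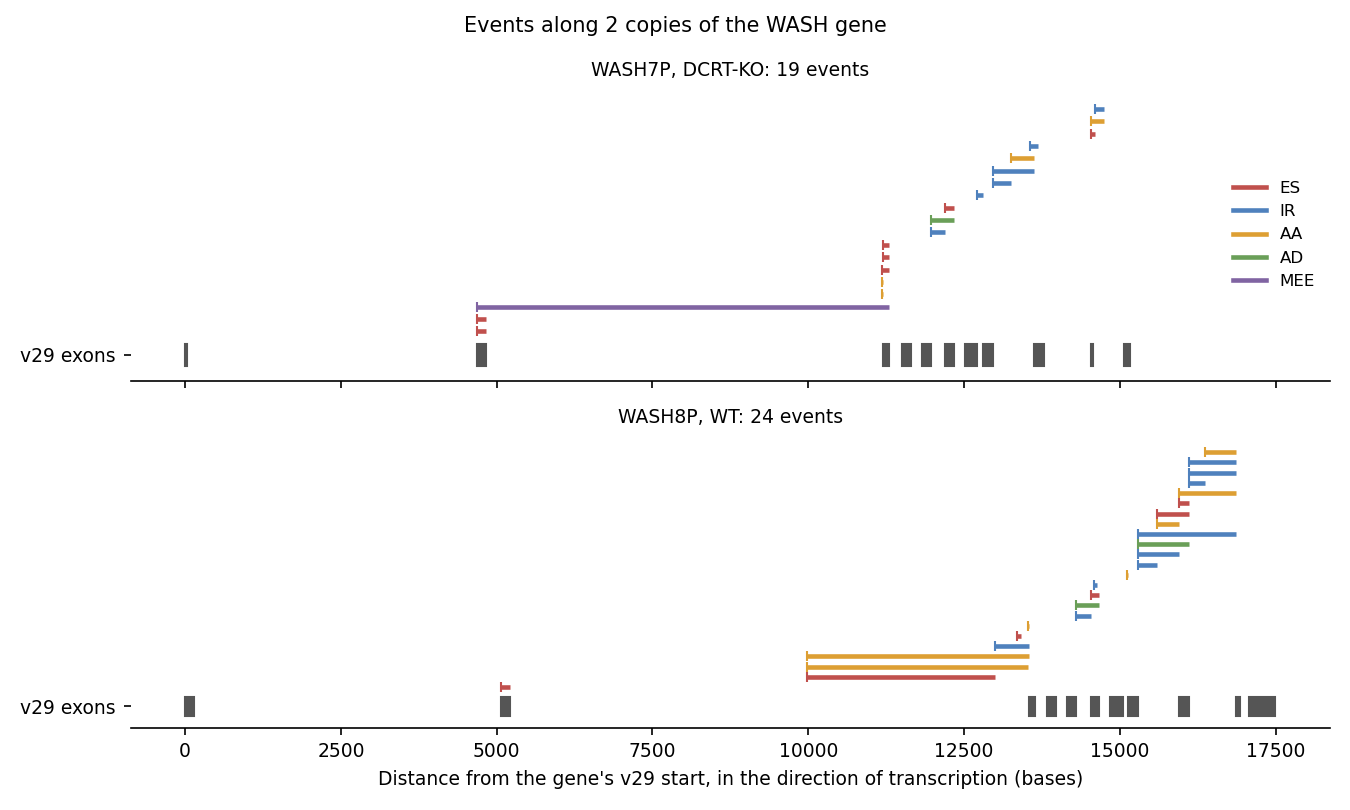
Events along WASH7P in DCRT-KO (19, above) and WASH8P in WT (24, below) by distance from the start of the gene in bases, coloured by type, with the v29 exons as dark boxes. A line spans the outermost positions of an event, so an MEE line covers 2 exons and the region between them.

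In other families some copies had events in 1 list only, and others in both. Copies were grouped into 24 families with a named parent after the locus names had been seen. Their 42 copies accounted for 177 DCRT-KO events (50.9%) and 125 WT events (48.3%). HERC2P2 and HERC2P9, copies of the ubiquitin ligase gene HERC2, had 6 and 5 DCRT-KO events and no WT event, and HERC2P3 and HERC2P4 had 5 and 1 in WT and 0 in DCRT-KO. HERC2P2 and HERC2P3 are 98.4% identical over their aligned part. No HERC2 copy was listed in both libraries. By contrast, WASH, NSUN5, STAG3 and FAM86 had 2 copies each with events without an identifier in both lists, and PMS2, DUXA and DDX11 had 1 each. For STAG3 copies the events without an identifier were 5 in DCRT-KO, in 2 copies, and 16 in WT, in 4 copies. At the other copies, STAG3L1 and STAG3L4, DCRT-KO had 7 events and 1 event under an identifier, so all 4 copies had events in both lists. STAG3L2 had 3 and 3 events without an identifier, and STAG3L3 had 2 and 7. The part of naming in this contrast was not tested.

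DUXAP9 and DUXAP10 both lie on chromosome 14 and are 99.7% identical over 1875 bases. DUXAP10 had 9 events in DCRT-KO and 6 in WT. DUXAP9 had 0 and 8. The acceptor stretch of 24 bases printed above was alternative at DUXAP10 in both lists and at DUXAP9 in WT. An exon of 111 bases and an acceptor shift of 33 bases were alternative at both loci in WT.

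NSUN5P1 and NSUN5P2 are copies of NSUN5, which methylates ribosomal RNA. NSUN5P2 had 12 events in DCRT-KO, 7 of them IR, the most IR events of a DCRT-KO locus, and 3 in WT. NSUN5P1 had 2 and 5 events, all but 1 of them IR. Retained introns of 80, 202 and 210 bases occurred in both copies. The coding NSUN5 had 5 events in DCRT-KO and 0 in WT.

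Parents were listed for 18 of the 24 families in either list. DDX12P, related to the helicase gene DDX11, had 2 events in DCRT-KO and 6 in WT, beside 21 and 16 of DDX11 itself. SDHAP1 had 3 and 3 beside 13 and 8 of SDHA, a subunit of mitochondrial complex II. MSTO2P, 99.5% identical to MSTO1, had 0 and 5 beside 10 and 17. CCT6P1, a copy of a subunit of the chaperonin TRiC, had 4 and 1 beside 14 and 8.

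Events without an identifier recurred in the other list less often than the whole lists did. Of the 348 DCRT-KO events 50 were found in WT with identical type, chromosome and positions (14.4%, interval 10.9 to 18.5), against 30.6% of the whole list. Of the 259 WT events 63 were found in DCRT-KO (24.3%, 19.2 to 30.0), against 35.7%. Compared with events of library isoforms alone under an identifier, 22.1% and 24.7%, the DCRT-KO share was lower by more than its interval, while the WT interval contains the value. In 6 of the 50 and 18 of the 63 the partner carried an identifier.

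**Figure D4:**
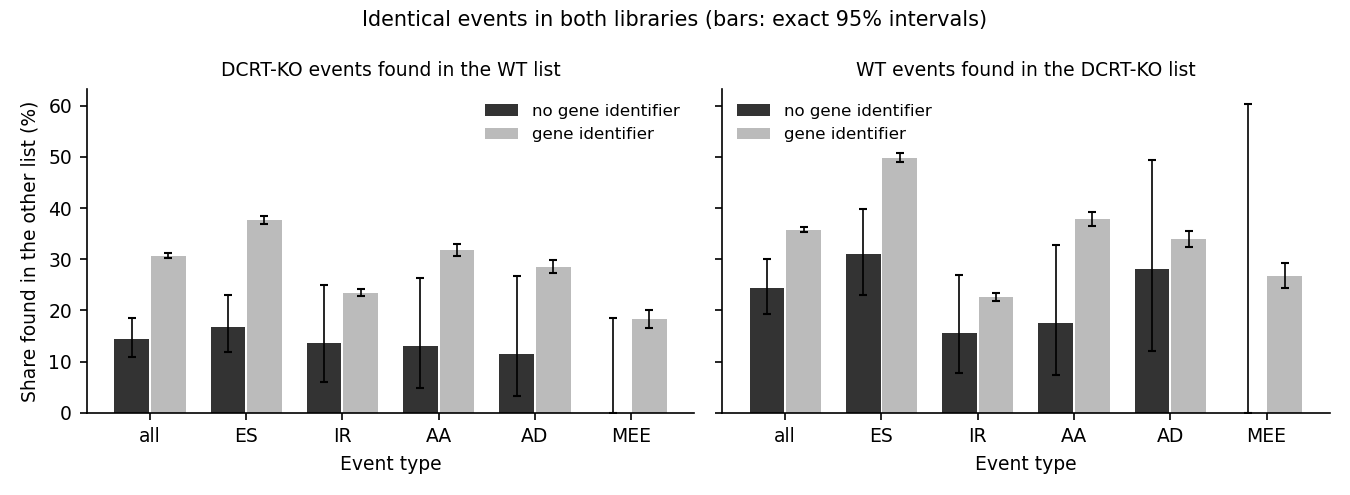
Share of events (%) with an identical event in the other list, by type, for events without an identifier (black) and with one (grey), with exact 95% intervals. All events without an identifier reach 14.4% in DCRT-KO and 24.3% in WT, and MEE events reach 0 of 18 and 0 of 4.

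Counted once, 40 events without an identifier were identical in both lists: 26 ES, 6 IR, 5 AA, 3 AD and no MEE. Of these, 28 had a segment annotated in v29, 19 of them exons. The 178-base exon of AC006001.3 stood in the most rows, 3 in DCRT-KO and 2 in WT, which is not a read count. Its length is not a multiple of 3. Among the 40 was a skipped segment of 24 bases on the scaffold GL000205.2, at a locus that no v29 gene overlaps.

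By locus, 33 of 98 DCRT-KO loci (33.7%, 24.4 to 43.9) lay at a locus without an identifier in WT, and 33 of 90 WT loci in DCRT-KO (36.7%, 26.8 to 47.5). Of the genes with an identifier, 75.9% of those in DCRT-KO and 79.7% of those in WT had an event in the other list. These shares are not like for like, because genes were matched by identifier and loci by overlapping spans. RRP7BP, FAM86DP and TRIM16L, for example, had events in both lists whose spans did not overlap. Genes with an identifier also had more events each, a median of 4 in DCRT-KO and 3 in WT against 2 and 1. No event of the other list overlapped 62 DCRT-KO and 51 WT loci, whose median was 1 event. At the 33 common loci DCRT-KO had 165 events and WT 102, and 29 of these loci shared at least 1 identical event.

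**Figure D5:**
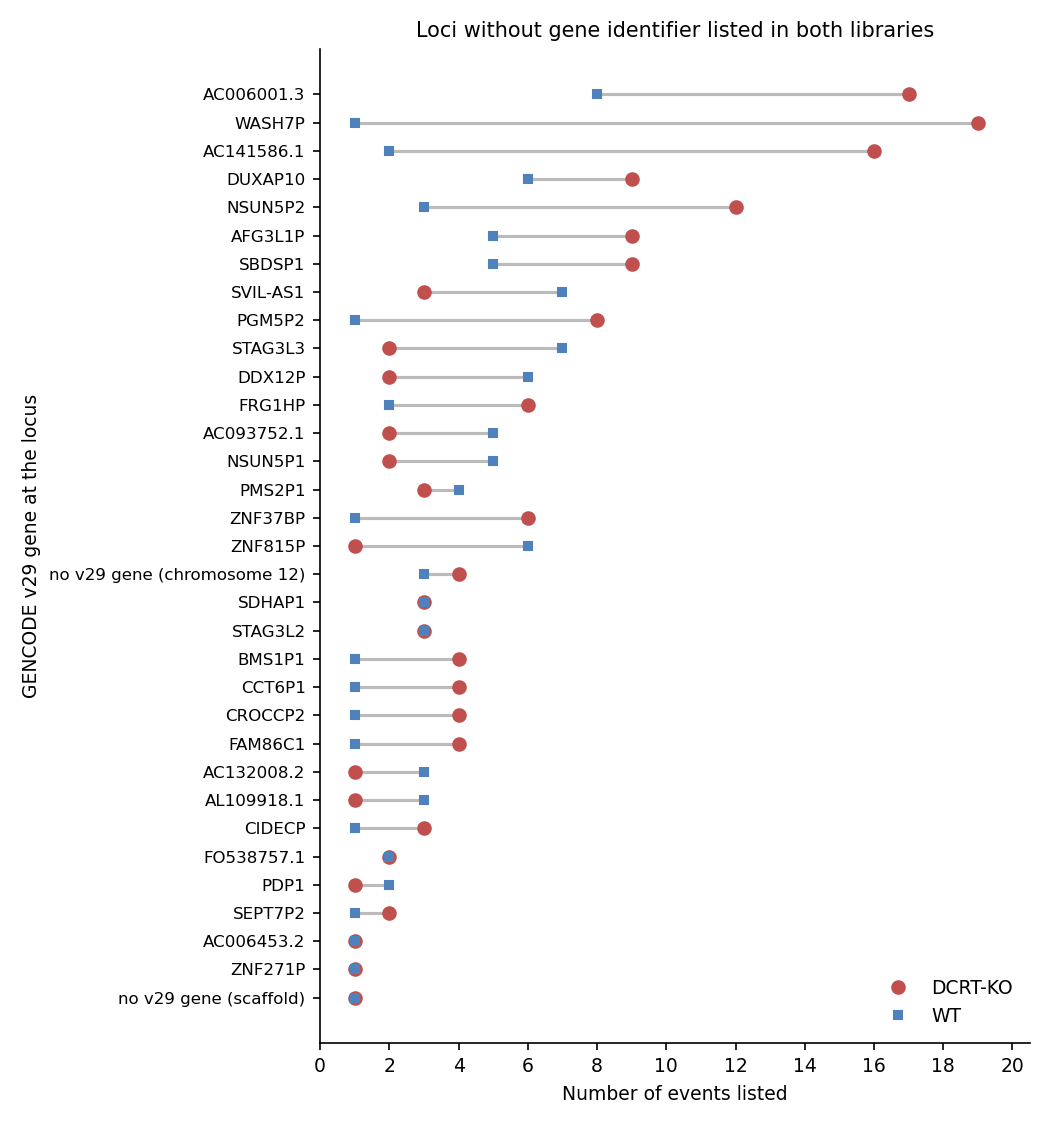
Number of events (horizontal axis) at each of the 33 loci without an identifier in both libraries, in DCRT-KO (red circles) and WT (blue squares), labelled by the v29 gene. DCRT-KO has more events at 17 loci, WT at 10, and 6 have the same number.

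The common loci with most events were AC006001.3 with 17 in DCRT-KO and 8 in WT, WASH7P with 19 and 1, AC141586.1 with 16 and 2, DUXAP10 with 9 and 6, and NSUN5P2 with 12 and 3. At AC006001.3, 13 of the 17 DCRT-KO events and 6 of the 8 WT events were exon skipping. Exons of 69 and 178 bases were among those skipped in both. AFG3L1P had 9 events in DCRT-KO, 5 of them AA, the most AA events of a DCRT-KO locus, and 5 in WT, 3 of them AA. WASH8P had the most AA events in WT, 7. The highest WT counts of the other types were 6 ES at each of WASH8P, C19orf48 and AC006001.3, and 2 AD at each of WASH8P, SVIL-AS1, STAG3L3 and STAG3L1. With repeated rows counted once, AC006001.3 had 4 ES events in WT. SVIL-AS1, STAG3L3 and STAG3L1 then had 1 AD event each. No WT locus had more than 1 MEE event.

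More events in WT stood at 10 common loci. SVIL-AS1, a pseudogene in v29 and a long non-coding RNA in RefSeq, had 3 in DCRT-KO and 7 in WT. STAG3L3 had 2 and 7, of which the exons of 124 and 108 bases were skipped in both. These exons were skipped in both libraries at STAG3L2 too, which had 3 and 3 events. ZNF815P, a zinc finger pseudogene, had 1 and 6.

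Loci with no v29 gene had events without annotated splice sites, and the larger ones were listed in DCRT-KO alone. Locus 10.34, chr10:3563363-3613221 on the minus strand, had 12 events, 8 ES and 4 AA, in 8 isoforms, and RefSeq places the long non-coding RNA LOC105376360 there. Locus 3.1026, chr3:104670500-104907345 on the minus strand, had 8 events in 7 isoforms and 3 MEE events, the most of any locus, which pair exons of 52, 65 and 98 bases. RefSeq names LOC107986108 there. Locus 9.1739, chr9:41473751-41475886 on the plus strand, at LOC107984035, had 7 events, 5 of them ES. In 8 of 12, 7 of 8 and 5 of 7 of these events each form had 1 isoform. Besides the scaffold locus, a locus of this kind on chromosome 12 had no identifier in both lists, with 4 and 3 events and an identical skipped exon of 158 bases.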

How the data were processed

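Per the labels, RNA of AC16 cells was extracted with Trizol. The series' design text describes PacBio long reads and the labels' protocols Illumina libraries, a conflict not settled here. The submitters' processing notes name minimap2 and hg38. Versions, event caller, annotation and filters: not given in the sources used here. The 10 tables deposited by the authors (5 event types, 2 libraries) give, per the file headers, chromosome, isoforms of each form, gene column, structure and splice positions, with no counts, so depth per sample is unknown.

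Each row was 1 event. The gene column had lost final zeros of locus numbers at 14 DCRT-KO and 3 WT loci, so loci were taken from isoform names. Strand was read from the order of positions, which matched GENCODE v29 in 77414 of 77414 events with an identifier known to v29. Loci were assigned to the same-strand v29 gene with most shared splice sites (ties by longest overlap). RefSeq names come from GRCh38.p14, on which strand is not given. Copies were aligned with BLAST 2.17.0 (e-value limit 1e-10). Tables were made with Python 3.11.15, pandas 2.3.3 and SciPy 1.17.1. The code was tested on 400 simulated rows, of which 400 were read back.

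The members, lists and families were chosen with earlier results of these data known. Named are the 5 loci with most events in each list, the 5 common loci with most events and the locus with most events of each type. Other loci were chosen after their values were seen. Alternatives covered repeated rows, locus and sharing definitions, overlap rules and isoform support. End bases of introns were not analysed here. Rows of a locus share isoforms, so intervals are too narrow. With 1 library per genotype, nothing was tested.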

Additional observations from a re-analysis of the deposited data

How the results depend on the processing

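Of 98 values recomputed under the alternatives, 75 stayed within the exact interval of the reported value or, for counts, within 1.5 times it, and 23 moved; the causes were not tested unless the construction shows them. Counting repeated rows once (26 values), leaving out the locus with most events of each list (10 values), a gene covering at least 50% of the locus span (4 values) and positions within 10 bases (2 values) moved none. With only events that have library isoforms on both forms as denominator, members made up 0.953% of DCRT-KO and 0.865% of WT. With events under an identifier at these places added, an alternative chosen after seeing the data, the DCRT-KO share was 0.993%. Each locus counted once per type gave 43.9% ES, 13.9% AD and 8.67% MEE in DCRT-KO and 14.9% AD in WT. Events with at least 2 isoforms on each form were 12.9% of the DCRT-KO and 12.4% of the WT members, against 100% with library isoforms on both forms, and among them IR made up 22.2% and MEE 0 in DCRT-KO, while ES made up 62.5%, IR 12.5% and MEE 0 in WT. On these few events IR was thus more frequent in DCRT-KO than in WT, the opposite of all members. Clusters of overlapping event spans, by construction smaller than loci, numbered 218 in DCRT-KO and 168 in WT. With overlap of same-type spans in place of identical positions, 19.3% of DCRT-KO and 33.6% of WT events recurred, and 17.4% of WT events had a partner that also lacked an identifier. A v29 exon, rather than a gene body, was overlapped by 72.4% of DCRT-KO and 77.8% of WT loci. With at least 2 isoforms on one form, 56.6% of skipped segments in DCRT-KO were v29 exons and the median acceptor distance in WT was 39 bases, against 93 bases in all. No paired analysis was possible because each genotype has 1 library and no test was made. Depth and read counts are not in the tables, so absence from a list means only that the event was not detected.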
